A study of Mus musculus with 2 samples.

Results

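The genes described here are the 10 core genes of the G1 checkpoint that were picked by symbol from an expression table of hair follicle stem cells. They are the D-type cyclin genes Ccnd1, Ccnd2 and Ccnd3, the kinase genes Cdk4 and Cdk6, the pocket protein genes Rb1, Rbl1 and Rbl2, and the inhibitor genes Cdkn1a and Cdkn1b. All 10 symbols were found, each on a single gene ID, among the 42392 gene IDs of the table. The rule names the symbols and uses no measured value, but the members were chosen with earlier results of these data known.

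The G1 checkpoint decides whether a cell leaves its resting state and copies its DNA. D-type cyclins, made in response to growth signals, bind the kinases CDK4 and CDK6, and these complexes phosphorylate the pocket proteins RB, p107 and p130. Unphosphorylated pocket proteins hold E2F transcription factors and so keep the genes of DNA replication off. The CIP/KIP proteins p21 and p27 inhibit cyclin-CDK2 complexes and also bind the D-cyclin complexes. Hair follicle stem cells spend most of the hair cycle out of division and divide for a short time in early anagen, so the checkpoint is a central control of their behaviour.

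The series has 2 samples of hair follicle stem cells, both from skin of female mice of genotype K15-CrePGR; Shh+/- that had received RU486 for 8 days. The Cre recombinase is driven by a keratin 15 promoter and fused to a progesterone receptor domain that RU486 activates. The labels list no allele for it to recombine, and Shh is present in 1 functional copy in both samples. The analysed sample was staged as anagen II-III, the early growth phase, and the other as telogen, the resting phase, and both titles call their sample a control. Only the anagen library is described below, and the telogen sample was not analysed here. The anagen column was matched by the number 1, which stands in its name and in the sample's title. It is the only column whose name matches a sample, and that name gives no stage, so the link is inferred. Neither the age of the mice nor the number of mice behind the library is given in the labels. Cells had been sorted for high ITGA6 and for CD34, after removal of dead cells, of SCA1-positive cells and of cells bearing CD140a, CD117, CD31 or CD45.

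Values are TPM, a measure of transcript abundance that is scaled to the same total in every library and divided by transcript length. They allow levels of different genes in a library to be set side by side. With 1 library there is no replicate, no error and no test for any value, and the read depth behind the values is unknown. Every value is an average over the sorted cells, in which fewer cells of a type and less RNA per cell cannot be told apart. All 9 markers of hair follicle stem cells reached 1 TPM, against 55.9% of all coding genes. They ranged from Nfatc1 at 16.1 TPM to Krt15 at 3364 TPM, with Cd34 at 131.8 TPM. The 3 basal keratinocyte markers lay between Trp63 at 162 TPM and Krt5 at 3833 TPM. Transcripts of genes used as markers of other cell types were also in the library. All 6 fibroblast markers reached 1 TPM, between Pdgfra at 1.44 TPM and Col3a1 at 287 TPM, and all 3 globin genes did, between 45.5 and 99.6 TPM. All 4 melanocyte markers lay between 1.17 and 12.6 TPM, 2 of 5 leukocyte markers reached 1 TPM, with Ptprc at 0.264 TPM and Cd74 at 13.2 TPM, and the 3 endothelial markers lay between 0.436 and 2.01 TPM. Suprabasal markers ranged from Flg at 0.00794 TPM to Krt10 at 138 TPM. No marker on these lists was at 0 TPM. Whether these transcripts came from other cells or from the stem cells themselves was not tested. The part of any other cells in the levels of the checkpoint genes was not tested either.

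All 10 checkpoint genes reached 1 TPM, the level taken here as expressed, which 55.9% of the 20853 nuclear protein-coding genes reached. Of the 10 genes, 9 reached 5 TPM, against 42.4% of coding genes, and 8 reached 10 TPM, against 31.8%. Their median was 36.7 TPM, against 12.5 TPM for the 11663 coding genes at 1 TPM or more, and 8 of 10 lay above that median, against 28.0% of all coding genes. These are central genes of a basic process, so these counts describe the list and show nothing particular to it. From high to low, the order was Cdk4, Ccnd1, Cdkn1b, Ccnd3, Ccnd2, Cdkn1a, Rb1, Rbl1, Rbl2 and Cdk6. The widest steps in that order were at its ends. Cdk4 was 4.32-fold above Ccnd1, and Rbl2 was 3.98-fold above Cdk6. The next smaller steps were 1.70-fold, from Ccnd1 down to Cdkn1b, and 1.68-fold, from Rbl1 down to Rbl2. Cdkn1b and Ccnd3 were 1.01-fold apart, and without a replicate the order of such neighbours is not established.

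**Figure D1:**
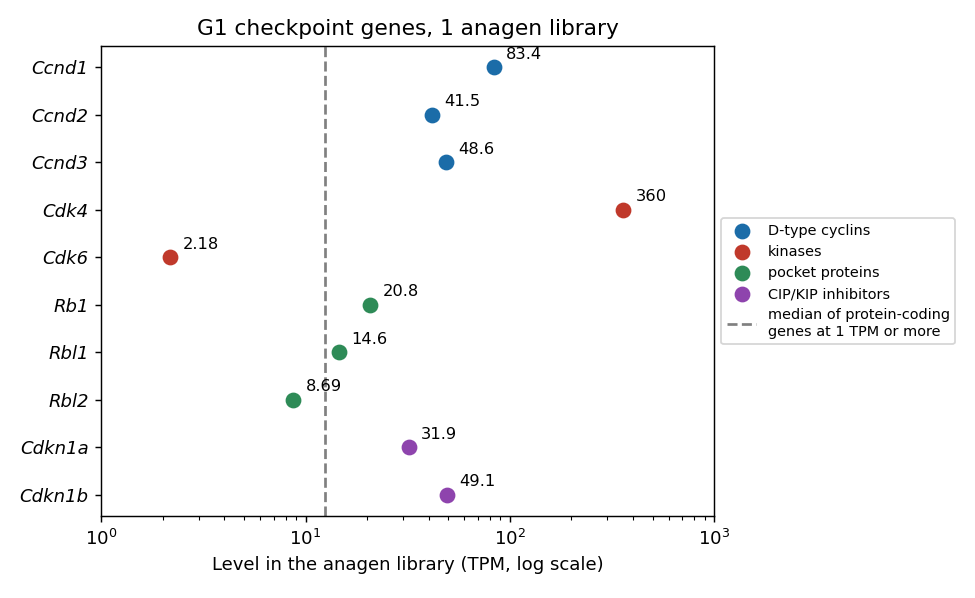
Level of each checkpoint gene in the anagen library, in TPM on a log axis, with genes grouped and coloured by role and each point being the single value of the library. Cdk4 stands at the right at 360.0 TPM, Cdk6 at the left at 2.18 TPM, and the dashed line marks the median of all expressed coding genes, 12.5 TPM.

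The D-type cyclins, the growth-signal sensors of the checkpoint, were all well expressed, with the highest 2.01-fold above the lowest. Ccnd1 (ENSMUSG00000070348, GRCm38 chromosome 7, 144929931 to 144939831) stood at 83.4 TPM, rank 906 among coding genes and above 92.2% of the expressed ones. Ccnd3 (ENSMUSG00000034165, chromosome 17, 47505051 to 47599689) stood at 48.6 TPM, above 85.3% of expressed coding genes. Ccnd2 (ENSMUSG00000000184, chromosome 6, 127125162 to 127152188) stood at 41.5 TPM, above 82.4% of them. No D-type cyclin was silent or near the bottom of the range. Ccnd1 was 1.72-fold above Ccnd3 and 2.01-fold above Ccnd2, and Ccnd3 was 1.17-fold above Ccnd2. Of the summed D-type cyclin level of 173 TPM, Ccnd1 made up 48.1%, Ccnd3 28.0% and Ccnd2 23.9%. The proteins are alike in how they activate their kinases but answer to different upstream signals, Ccnd1 being a known target of beta-catenin and of mitogen signalling in many tissues.

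The 2 kinase genes, whose proteins share the same cyclin partners and substrates, stood at opposite ends of the list. Cdk4 (ENSMUSG00000006728, chromosome 10, 127063535 to 127067288) stood at 360.0 TPM, rank 171 of 20853 coding genes and 28.9-fold above the median of expressed coding genes. Cdk6 (ENSMUSG00000040274, chromosome 5, 3341004 to 3531008) stood at 2.18 TPM, rank 10583 of the same 20853. It was above 9.26% of expressed coding genes, or above 49.2% of all coding genes when those under 1 TPM were kept. The ratio of Cdk4 to Cdk6 was 165, and Cdk4 made up 99.4% of their sum of 362 TPM. The size of that ratio depends on how a low value is treated, and with 5 TPM added to each gene it was 50.8. Cdk4 was also 12.7-fold above Cdk2, the kinase of cyclins E and A, which stood at 28.2 TPM. It was 5.08-fold above Cdk1, the mitotic kinase, at 70.9 TPM. Cdk6 stood at 0.0773 times the level of Cdk2. The 19 CDK genes of the table were taken by the symbol Cdk and a number, with a letter after it in Cdk11b. Among them, Cdk4 was the highest and held 49.1% of their summed TPM. Cdk6 was number 18, and only Cdk15, at 0.280 TPM, was lower. The 17 CDK genes other than Cdk4 and Cdk6 had a median of 12.2 TPM, and Cdk1 was the highest of these. Of 27 cyclin genes, 23 reached 1 TPM, against 55.9% of all coding genes. Among the 27, the D-type cyclins Ccnd1, Ccnd3 and Ccnd2 were numbers 2, 5 and 6. Together they held 25.7% of the sum, and the other 24 had a median of 10.9 TPM. The cyclin gene above Ccnd1 was Ccni, an atypical cyclin without a clear role in the G1 checkpoint, at 93.5 TPM. The RNA-processing cyclin genes Ccnl1 and Ccnl2 stood between Ccnd1 and Ccnd3, at 80.1 and 67.7 TPM. These 2 family lists were drawn up after values of the members had been seen.

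**Figure D2:**
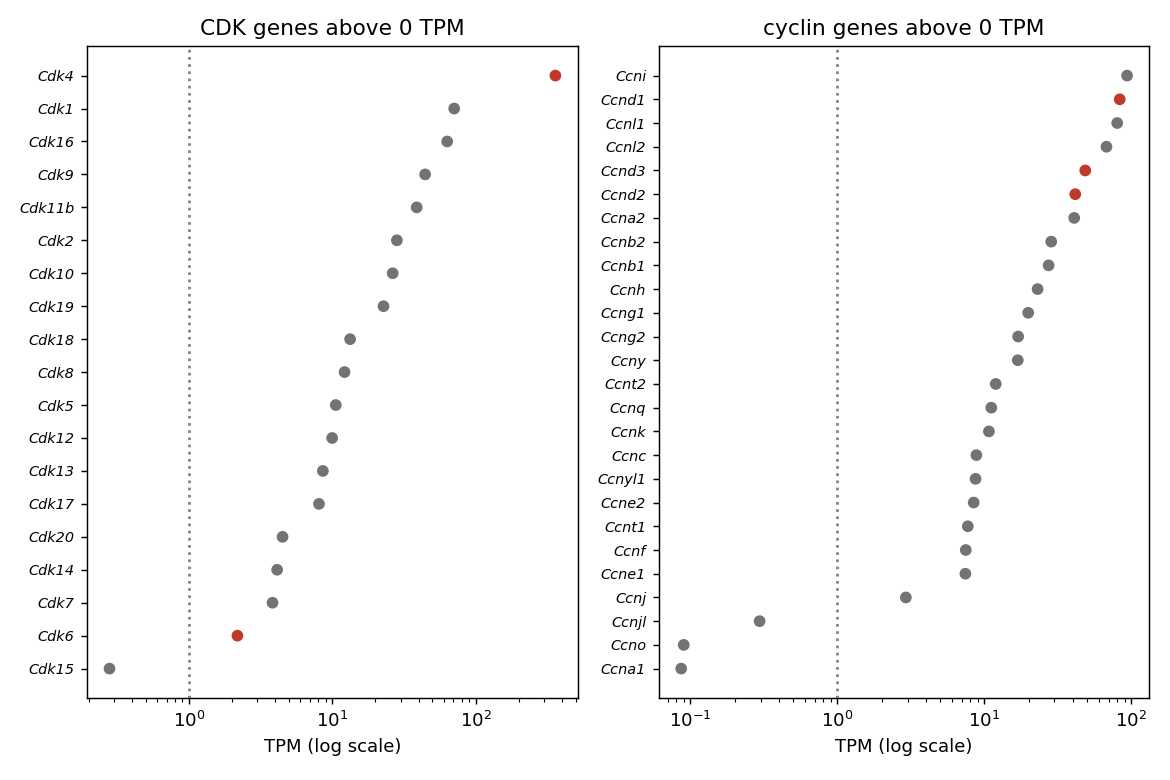
Level in TPM, on log axes, of each CDK gene (left) and each cyclin gene (right) above 0 TPM in the anagen library, with the checkpoint genes in red and the others in grey. Cdk4 lies apart at the top of the CDK genes and Cdk6 is next to the bottom, while Ccnd1, Ccnd3 and Ccnd2 are all among the 6 highest cyclin genes; the dotted line marks 1 TPM.

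The annotated promoters of the kinase genes are shown because their levels are the 2 extremes of the list, and that of Rbl1 because it alone among the 7 members with a window held a match to the E2F motif. Each window runs from 250 bases before to 50 bases after the annotated start, 5′ to 3′ on the gene's own strand, from RefSeq on GRCm38.p6. Capitals mark matches on either strand to 4 motifs searched by their letters. These were E2F, as TTTCCCGC, TTTCGCGC, TTTGCCGC or TTTGGCGC, the GC box GGGCGG, which SP1 can bind, the E-box CACGTG, which MYC-MAX and other basic helix-loop-helix factors can bind, and the TATA box TATAAA. The windows are at chr10:127063285-127063584 on the plus strand for Cdk4, chr5:3343643-3343942 on the plus strand for Cdk6 and chr2:157204485-157204784 on the minus strand for Rbl1.
Cdk4: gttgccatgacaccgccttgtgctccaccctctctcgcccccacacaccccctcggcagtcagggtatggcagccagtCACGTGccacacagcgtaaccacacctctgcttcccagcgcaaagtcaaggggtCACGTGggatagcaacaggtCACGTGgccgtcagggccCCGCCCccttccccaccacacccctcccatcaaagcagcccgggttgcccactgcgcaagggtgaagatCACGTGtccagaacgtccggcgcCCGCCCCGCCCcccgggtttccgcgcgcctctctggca
Cdk6: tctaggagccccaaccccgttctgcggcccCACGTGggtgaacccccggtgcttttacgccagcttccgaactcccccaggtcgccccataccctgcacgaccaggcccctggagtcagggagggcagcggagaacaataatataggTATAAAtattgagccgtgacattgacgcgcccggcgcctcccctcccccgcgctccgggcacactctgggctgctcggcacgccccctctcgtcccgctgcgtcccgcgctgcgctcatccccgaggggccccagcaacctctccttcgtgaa
Rbl1: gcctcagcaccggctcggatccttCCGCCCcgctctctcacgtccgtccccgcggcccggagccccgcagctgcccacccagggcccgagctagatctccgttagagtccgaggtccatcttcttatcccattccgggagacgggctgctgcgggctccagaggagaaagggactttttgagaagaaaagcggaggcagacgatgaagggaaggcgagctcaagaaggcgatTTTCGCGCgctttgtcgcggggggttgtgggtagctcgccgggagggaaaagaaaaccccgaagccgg

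The Cdk4 window held 4 E-boxes, beginning 172, 118, 98 and 11 bases upstream of the start, and 3 GC boxes, of which the 2 after the start overlap by 1 base. An E-box stood in the windows of 9.17% of the 16735 coding genes with a window, and 4 or more stood in those of only 5 genes. The other 4 of these genes ranged widely in this library, with Lamp1, a lysosomal membrane protein gene, at 189 TPM, Mfsd1 at 24.0 TPM, Zmym6 at 4.79 TPM and Nxf2 at 0.0104 TPM. Over all coding genes with a window, the median level was 7.68 TPM with an E-box and 2.04 TPM without one. Such a difference was not particular to E-boxes. The medians were 8.82 TPM with and 0.0565 TPM without a GC box, and 10.2 TPM with and 2.31 TPM without the E2F letters. For the TATA box the difference went the other way, with 0.0417 TPM with it and 3.76 TPM without it. Any link of these motifs to the level of a gene was not tested. The Cdk6 window held 1 E-box, 220 bases upstream, 1 TATA box, 103 bases upstream, and no GC box. This window, from 3343643 to 3343942, lies inside the gene span, which begins at 3341004. The beginning of that span was not searched. TATA boxes stood in 14.5% and GC boxes in 50.7% of coding genes' windows. The Rbl1 window held the E2F letters TTTCGCGC 18 bases upstream of the start and 1 GC box. A match to the E2F letters stood in 3.36% of coding genes' windows. Windows were found for 7 of the 10 members, with 2 each for Ccnd3 and Cdkn1a. The GC box was the only one of these motifs found in the windows of Ccnd3, Rbl2, Cdkn1a and Cdkn1b, and 1 of the 2 Cdkn1a windows held none of the motifs. A match is a description of the letters, and no binding was measured.

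**Figure D3:**
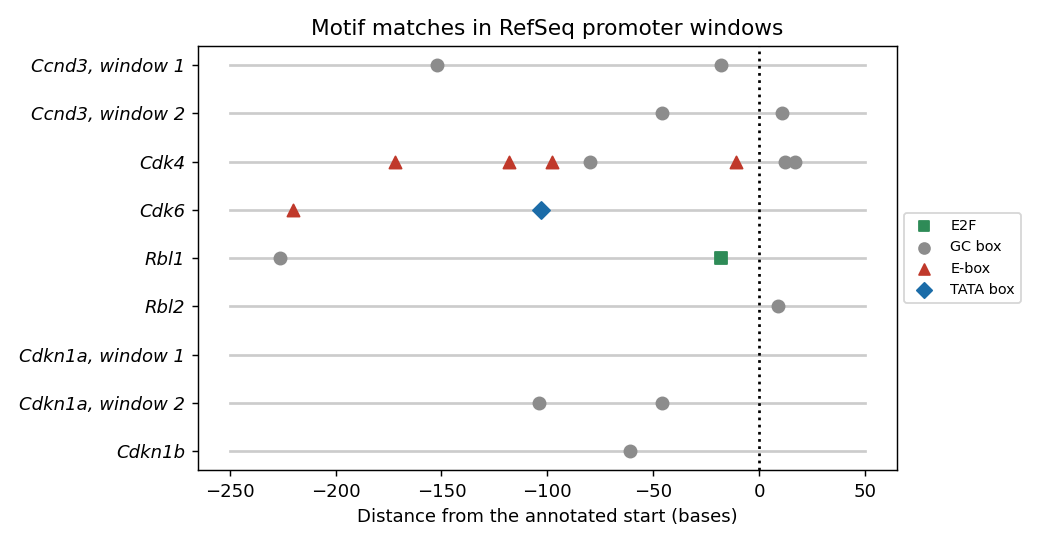
Places of motif matches in the 9 promoter windows of 7 checkpoint genes, with distance from the annotated start in bases on the x axis and a symbol for each motif. The 4 E-boxes of Cdk4 and the single E2F match, in Rbl1, can be seen.

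The pocket protein genes, which encode the E2F-binding repressors that the D-cyclin kinases act on, all lay below every other member except Cdk6. Rb1 (ENSMUSG00000022105, chromosome 14, 73192858 to 73325951), which encodes RB, stood at 20.8 TPM, above 65.5% of expressed coding genes. Rbl1 (ENSMUSG00000027641, chromosome 2, 157145893 to 157204534), which encodes p107 and is itself a known E2F target in cycling cells, stood at 14.6 TPM, above 54.7%. Rbl2 (ENSMUSG00000031666, chromosome 8, 91070057 to 91123844), which encodes p130, the pocket protein best known from resting cells, stood at 8.69 TPM, above 38.7%. For Rbl2 that share was 65.7% among all coding genes and 19.1% among those at 5 TPM or more. Rb1 was thus 1.43-fold above Rbl1 and 2.39-fold above Rbl2, and Rbl1 was 1.68-fold above Rbl2. Of their sum of 44.1 TPM, Rb1 made up 47.2%, Rbl1 33.1% and Rbl2 19.7%. The D-type cyclins together were 3.94-fold above the pocket proteins together. These are ratios of RNA, which do not give the ratios or the phosphorylation of the proteins.

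The CIP/KIP inhibitor genes were expressed well above the middle of the range. Cdkn1b (ENSMUSG00000003031, chromosome 6, 134920401 to 134925525), which encodes p27, stood at 49.1 TPM, above 85.5% of expressed coding genes. Cdkn1a (ENSMUSG00000023067, chromosome 17, 29090979 to 29100722), which encodes p21, a main target of p53, stood at 31.9 TPM, above 76.5%. Cdkn1b was 1.54-fold above Cdkn1a. Their sum of 81.1 TPM was below that of the D-type cyclins, which was 2.14-fold higher, and below that of the 2 kinases, which was 4.47-fold higher. p27 is regulated to a large extent by protein breakdown, so its RNA and protein levels can differ.

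**Figure D4:**
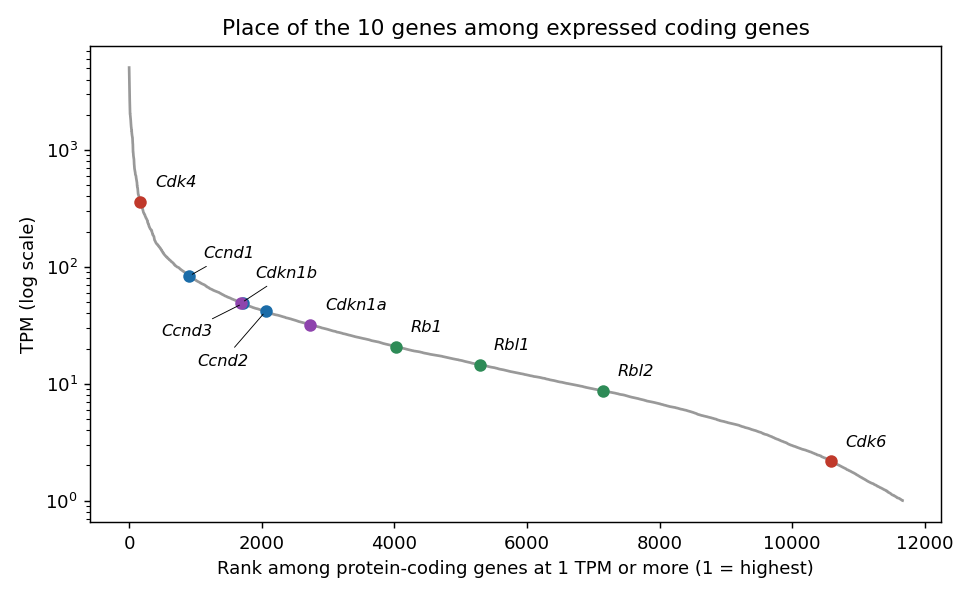
The 11663 protein-coding genes at 1 TPM or more, ordered from the highest level on the left (x axis, rank) with their TPM on a log axis (grey line), and the 10 checkpoint genes marked in the colours of their roles. Cdk4 at rank 171 sits on the steep part of the curve, and 6 of the 10 genes lie between rank 906 and rank 4024, with Rbl1, Rbl2 and Cdk6 further right.

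The other CDK inhibitor genes, from a list drawn up beside the members, were unevenly expressed. Of the 5 genes, 4 reached 1 TPM, against 55.9% of all coding genes, and 2 reached 10 TPM, against 31.8%. Cdkn2c, which encodes the INK4 inhibitor p18, and Cdkn2d, which encodes another INK4 inhibitor, both stood at 22.5 TPM. INK4 proteins bind CDK4 and CDK6 directly. Cdkn1c, the gene of the CIP/KIP inhibitor p57, stood at 2.69 TPM and the INK4 gene Cdkn2b at 2.07 TPM, so that Cdkn2c was 10.9-fold above Cdkn2b. Cdkn2a, which makes an INK4 protein and the p53 activator ARF from overlapping reading frames, stood at 0.135 TPM, and the gene value does not separate its products. All 5 together summed to 49.9 TPM, and the sum of Cdkn1a and Cdkn1b was 1.63-fold higher. The sum of Cdk4 and Cdk6 was 7.26-fold above that of the 5 genes.

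The genes that act just after the D-type cyclins were expressed at lower levels than Ccnd1. Ccne1 and Ccne2, the E-type cyclins that drive entry into S phase with CDK2, stood at 7.43 and 8.46 TPM, and Ccnd1 was 11.2-fold and 9.86-fold above them. The S-phase cyclin gene Ccna2 stood at 40.8 TPM and its germ-cell relative Ccna1 at 0.0866 TPM. Among genes that set the phosphorylation of CDKs, Cdc25b stood at 38.8 TPM, Wee1 at 9.96 TPM, Cdc25a at 9.55 TPM and Cdc25c at 8.01 TPM. With Cdk2, 8 of these 9 genes reached 1 TPM, against 55.9% of all coding genes. Of the 9, 3 lay above the median of expressed coding genes, a share near the background of 28.0%.

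All 10 E2F and DP genes, the family whose classical members the pocket proteins bind, reached 1 TPM, against 55.9% of all coding genes. Their median was 9.61 TPM. The dimer partner gene Tfdp1 was the highest at 70.0 TPM and was 6.73-fold above Tfdp2, at 10.4 TPM. E2f4, the repressor E2F that works with p107 and p130, stood at 25.4 TPM and was 2.12-fold above E2f1, an activator that RB binds, at 12.0 TPM. The other activators, E2f2 and E2f3, stood at 5.55 and 4.81 TPM. E2f5, a repressor like E2f4, stood at 8.18 TPM, and E2f6, a repressor that does not bind pocket proteins, at 11.9 TPM. The atypical repressors E2f8 and E2f7 stood at 8.80 and 2.72 TPM. Of the 10 genes, 2 lay above the median of expressed coding genes, a share near the 28.0% of all coding genes that did. The partners of p107 and p130 in the DREAM complex, and the MYB and FOXM1 factors that take over its core in dividing cells, also all reached 1 TPM, 8 of 8. Of all coding genes 55.9% reached 1 TPM, and at 10 TPM 4 of these 8 genes remained, against 31.8%. Rbbp4, which also serves several chromatin complexes, stood at 77.2 TPM. Foxm1 stood at 27.1 TPM, Lin37 at 13.3 TPM, Mybl2 at 10.9 TPM and Lin52 at 5.51 TPM, Lin54 and Lin9 stood at 4.98 TPM each, and Mybl1 stood at 1.95 TPM.

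The genes that lie downstream of the checkpoint were expressed in this library. All 19 E2F target genes reached 5 TPM, their median was 42.5 TPM, and 16 of 19 lay above the median of expressed coding genes, against 42.4% of all coding genes at 5 TPM or more and 28.0% at or above that median. The highest were the thymidine kinase gene Tk1 at 95.3 TPM, the replication clamp gene Pcna at 75.3 TPM, Mcm6 at 63.3 TPM and Slbp at 61.2 TPM, and the lowest were the replication factor genes Cdc45 at 7.55 TPM and Cdc6 at 6.06 TPM. All 20 G2/M genes also reached 5 TPM, against the same 42.4%. Their median was 25.6 TPM, and their highest members were the topoisomerase gene Top2a at 98.3 TPM, the CDK-binding Cks2 at 88.5 TPM, the ubiquitin-conjugating enzyme gene Ube2c at 80.6 TPM and Cdk1, given above. Lowest were the kinesin genes Cenpe at 6.05 TPM and Kif20b at 5.97 TPM. These levels stood beside those of the inhibitors and pocket proteins in a single average over the sorted cells. Whether the same cells held both was not measured.

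**Figure D5:**
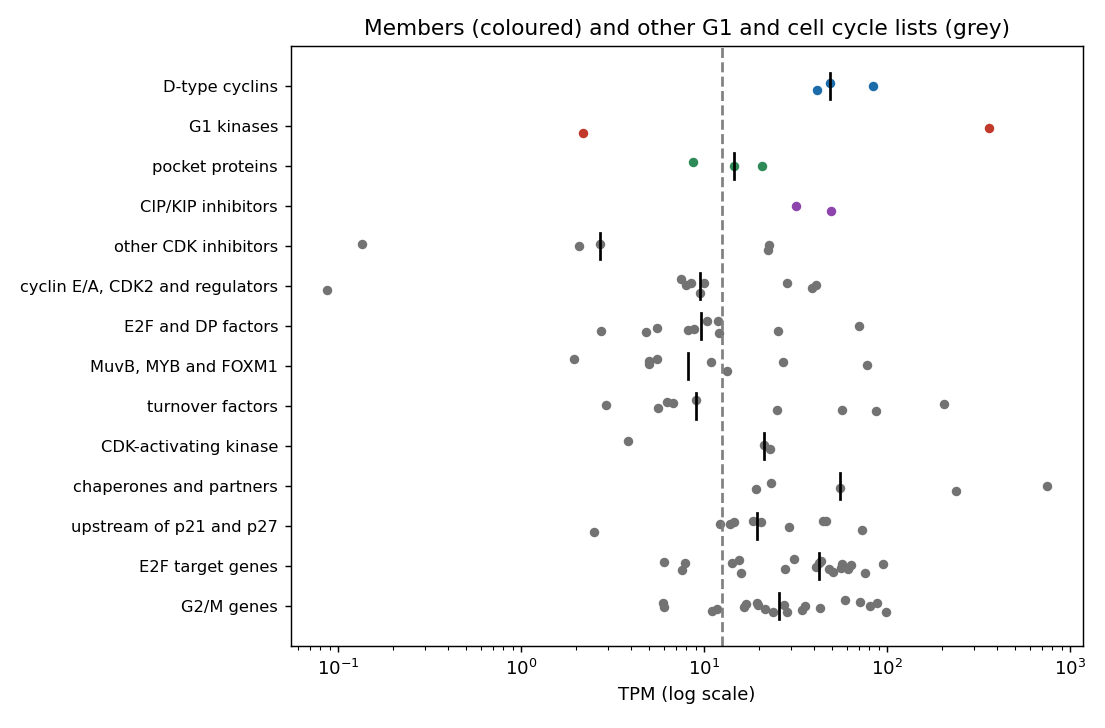
Level in TPM, on a log axis, of every gene of the 4 member families (coloured) and of 10 other lists (grey), each point being a gene and each black bar the median of a list of 3 or more genes. The dashed line marks the 12.5 TPM median of expressed coding genes; E2F targets and G2/M genes lie mostly to its right, and E2F and DP factors mostly to its left.

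Some members share sequence or position with other genes, which may limit how exactly their reads could be assigned. The overlaps below are of whole gene spans, introns included, and the overlap of exons was not computed. Whether the counting used strand is not given in the sources used here. Rbl2 overlaps the gene Aktip over 12064 bases, and Aktip stood at 17.4 TPM, above Rbl2 itself. Ccnd1 overlaps the gene listed as LTO1, at 10.4 TPM, over 818 bases, Ccnd3 overlaps Bysl, at 6.62 TPM, over 359 bases, and the gene Lpar6, at 2.60 TPM, lies within Rb1. Cdk4 shares 2 bases at its end with Tspan31, at 44.6 TPM. A pseudogene copy of Ccnd3, listed as Ccnd3-ps, stood at 1.58 TPM. Cdk6 overlaps 2 noncoding genes of the RefSeq annotation, neither of which had a value in the table by its symbol. After rescaling without mitochondrial genes and the 50 highest genes every level of the 10 genes is multiplied by 1.73 and the ratios between them are unchanged.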

How the data were processed

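RNA of sorted hair follicle stem cells was sequenced as paired ends from an Illumina mRNA kit, per the labels' protocols. The authors deposited TPM values per gene, per the file headers. Bowtie2 2.2.9, RSEM 1.2.30 and the build mm10 are named in the submitters' processing notes; which annotation and filters were applied is not given in the sources used here. Of 12 columns of values, 11 were not used, because their names match no sample of the series. The 42661 rows hold 42392 gene IDs, as 160 IDs stand on several rows with the same value, and each was used once. Gene types and positions came from RefSeq, assembly GRCm38.p6 (of which mm10 is another name), matched by symbol for 32824 IDs; a name table matched 41523. Coding genes are nuclear genes with the highest value per symbol. Positions are the share of coding genes at 1 TPM or more with a lower level. The calculation was run on simulated levels with known positions, which checks the arithmetic only and lends no support to the values. The members, the lists and the rule for naming genes were chosen with earlier results of these data known. Gene lists of the checkpoint and cell cycle with at most 10 genes are named in full, longer ones by the 4 highest and 2 lowest. Cell markers are given as ranges, and genes named from the cyclin and CDK families or for their E-boxes were chosen after their values were seen. In the list of E2F targets, 1 gene is not reported here and was left out of its counts and median. With 1 library, no fold change between stages, no test and no search for genes of like pattern was possible. Depth is unknown, so no interval or floor was set. Python 3.11.15, pandas 2.3.3, numpy 2.4.6 and matplotlib 3.10.9 were used.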

Additional observations from a re-analysis of the deposited data

How the results depend on the processing

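Values were called moved where an alternative changed them by over 1.5 times. Rescaling without mitochondrial genes and the 50 highest genes moved every level by the same factor, giving Ccnd1 144 TPM, Ccnd2 71.9 TPM, Ccnd3 84.2 TPM, Cdk4 624 TPM, Cdk6 3.78 TPM, Rb1 36.0 TPM, Rbl1 25.3 TPM, Rbl2 15.1 TPM, Cdkn1a 55.4 TPM and Cdkn1b 85.1 TPM, with a median of 63.7 TPM. Summing all gene IDs of a symbol moved no level, since each member has 1 ID. By a geometric mean in place of the median, the list stood at 31.0 TPM. The share of genes below Rbl2 was 19.1% among coding genes at 5 TPM or more and 65.7% among all coding genes. For Cdk6 it was 49.2% among all coding genes, and no value could be given at 5 TPM, which Cdk6 did not reach. The other 26 positions moved by less. Of the ratios with a pseudocount, 1 moved, that of Cdk4 to Cdk6 at 50.8 with 5 TPM added, and 19 did not. The counts of listed genes depended on the threshold, with 7 of 33 moved, all of them lower at 5 or 10 TPM. No paired analysis was possible because only 1 library was analysed. The lack of a replicate and the unknown depth limit every value.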

Other observations

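Genes that act on the stability, assembly and transcription of the checkpoint proteins were also expressed, and all values below are TPM levels of the same anagen library. Among 9 genes of protein turnover, all reached 1 TPM, against 55.9% of all coding genes. At 10 TPM 4 of the 9 remained, against 31.8%, and 4 lay above the median of expressed coding genes, against 28.0%. Skp1a, a shared subunit of SCF ubiquitin ligases, was highest at 206 TPM, followed by Cks1b, which helps SKP2 bind p27, at 87.3 TPM and the scaffold gene Cul1 at 56.8 TPM. Skp2 itself, which marks p27 for breakdown, stood at 5.61 TPM. Fzr1, an activator of the anaphase-promoting complex in G1, stood at 25.1 TPM, and Ambra1, which promotes breakdown of D-type cyclins, at 9.07 TPM. Fbxw7, which marks cyclin E, stood at 6.76 TPM, and Fbxo31 and Fbxo4 stood at 6.25 and 2.91 TPM.

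The CDK-activating kinase genes were uneven, with Ccnh at 23.0 TPM, Mnat1 at 21.1 TPM and the kinase gene Cdk7 at 3.83 TPM. The chaperone genes Hsp90ab1 and Hsp90aa1 stood at 744 and 237 TPM, and Cdc37, which brings CDK4 to HSP90, at 55.5 TPM. Ccndbp1 stood at 23.2 TPM and Cables1 at 19.2 TPM. All 10 listed regulators upstream of p21 and p27 reached 1 TPM, against 55.9% of all coding genes, and 9 reached 10 TPM, against 31.8%. Trp53, which encodes p53, was highest at 72.6 TPM, and its antagonist gene Mdm2 stood at 18.5 TPM. Klf4 stood at 46.5 TPM, Smad4 at 44.4 TPM, Zbtb17 at 29.1 TPM and Myc at 20.4 TPM. The FOXO genes Foxo4, Foxo1 and Foxo3 stood at 14.6, 13.9 and 12.3 TPM, and Smad3 was lowest at 2.51 TPM.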
